A study of Mus musculus with 69 samples.

Results

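Exposure of WT VSMC to a high glucose concentration with free fatty acids (HG + FFA) was compared with Control in 8 of the 69 RNA-Seq libraries of the series, chosen by their treatment and genotype labels. VSMC are the contractile cells of the vessel wall, and these were primary cultures, passaged before use, from the thoracic and abdominal aorta of male wildtype mice. Each of 4 animals gave a set of cells of the same animal and passage (sets 1 to 4), and each set held a Control library and an HG + FFA library. HG + FFA meant 20 mM glucose with free fatty acids for 24 h. The labels give 100 µM free fatty acids, whereas the methods of the study give oleate and palmitate at 100 µM each, so that the total dose is not settled. Control cells were kept for the same time without added fatty acids, in low-glucose medium by the methods, and the labels give no glucose concentration for them. All cells had first been held without serum and supplements, and all incubation solutions, Control included, contained albumin as a carrier of fatty acids. Glucose and fatty acids were given together, so that their parts cannot be told apart. For comparison, the same cells exposed to 30 nM angiotensin II with 300 nM epinephrine by the labels (AII + NA) were used. The methods name norepinephrine in place of epinephrine. The same cells under HG + FFA and AII + NA together (ALL) were used as well. So were VSMC without EGFR (KO VSMC) and cardiac endothelial cells labelled WT (EC). KO VSMC came from mice with floxed Egfr and a Cre driven by the SM22 promoter.

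Cells exposed to fatty acids esterify them into lipid droplets or oxidize them in mitochondria and peroxisomes. Fatty acids are also ligands of the PPAR family of nuclear receptors, which form heterodimers with RXR and drive genes of fatty acid uptake and oxidation. The LXR receptors drive cholesterol efflux, SREBP2 drives cholesterol synthesis when membrane sterol is low, and both systems respond to the lipids a cell takes up. VSMC in the healthy wall divide rarely and can lose contractile proteins and gain proliferative and matrix-producing properties.

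The 8 libraries held between 25165228 and 37801299 counted reads, with a median of 33322806.5. Library pairs of the same set deviated together, with correlations of their deviations from the group means between 0.755 and 0.899 over 13789 genes. Levels are given as FPM, the counted fragments of a gene scaled to the library size after TMM correction, and were not divided by gene length. Egfr was at 221.1 to 459.7 CPM (scaled to the library size without TMM) in the WT libraries. In KO VSMC it was at 0.5 to 39.6 CPM, and the highest values were those of set 5, where 39.6 and 32.8 CPM remained. Of the 10 smooth muscle markers, all were detected, with Acta2 at 210 to 995 FPM, Cald1 at 690 to 1615 FPM and Myh11, a marker of the mature contractile cell, at 2.90 to 12.8 FPM. Tagln was low, at 1.57 to 4.28 FPM, but 66.7% of its exon length overlaps another gene, where a read belongs to no single gene. The 10 fibroblast and adventitia markers were also all detected and summed to 3667 to 7761 FPM per library, against 1053 to 2794 FPM for the smooth muscle markers. RNA of smooth muscle markers was thus present, with Tagln and Myh11 low, beside RNA of fibroblast genes. Of the latter, Dcn, Lum and Ly6a also stand in the list of phenotypic modulation markers of VSMC, so the sums do not give shares of cell types. Acta2 and Tagln did not set these cells apart from EC. The Control means of Acta2 and Tagln were 585.4 and 2.73 FPM in WT VSMC and 1142 and 5.70 FPM in EC. For Myh11 the Control means were 6.10 FPM in WT VSMC and 3.14 FPM in EC. In bulk RNA fewer cells of a type and less RNA per cell cannot be told apart.

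HG + FFA gave 48 differentially expressed genes (DEG), 31 higher and 17 lower than Control. To count as a DEG, a protein-coding or lncRNA gene needed a false discovery rate (FDR) under 0.05 by edgeR and by DESeq2, a |log2FC| not below 0.64, and 3 FPM or more as the mean of either group. The 48 DEG were 0.284% of the 16905 genes tested, with 0.183% higher and 0.101% lower. Their median |log2FC| was 0.90, 19 had a |log2FC| of at least 1, and all 48 moved in the same direction in 4 of 4 sets. By comparison, 9.93% of all genes tested were higher in all 4 sets and 11% were lower. The HG + FFA libraries lay above all Control libraries for 11 of the higher DEG and below them for 3 of the lower DEG, where 0.81% and 0.657% of all genes did so. For the other DEG the groups overlapped. Control levels of the fibroblast genes Scara5 and Cd34, for example, spanned 34.8-fold and 14.7-fold between sets.

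**Figure D1:**
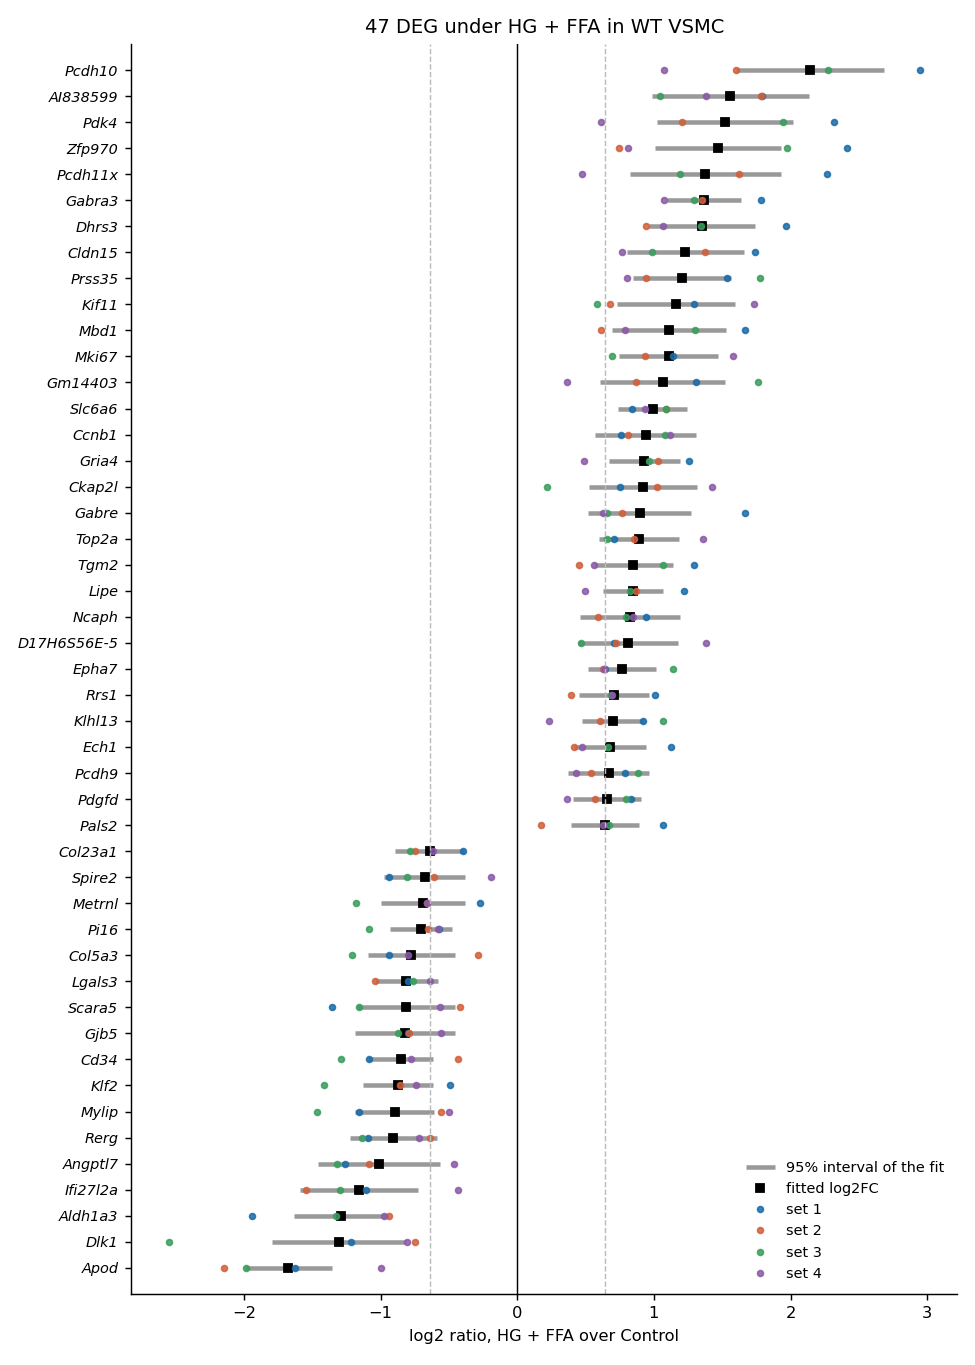
Fitted log2FC of HG + FFA against Control (black squares) with its 95% interval (grey bars) for 47 of the 48 DEG in WT VSMC, and the log2 ratio of the paired libraries in each of the 4 sets (coloured dots). Dashed lines mark a |log2FC| of 0.64. All 4 dots of every gene drawn lie on the same side of 0, from Pcdh10 at 2.14 to Apod at -1.67.

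The size of the response differed between animals. Set 1 gave the largest log2 ratio for 19 of the 31 higher DEG, with a median of 1.26, and set 4 the smallest for 14, with a median of 0.77. Among the 17 lower DEG, set 3 gave the largest decrease for 11, with a median of -1.21, and set 4 the smallest for 7, with a median of -0.64. The number of DEG depended on these animals, with 21 without set 1 and 19 without set 3, but 54 without set 2 and 56 without set 4.

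Pdk4 was a higher DEG. It encodes the kinase that inhibits pyruvate dehydrogenase and so limits the use of glucose carbon in mitochondria. Pdk4 (chr6:5483097-5496339, GRCm39) was at 20.5, 39.1, 45.8 and 30.97 FPM in Control sets 1 to 4 and at 102.6, 90.1, 176.3 and 47.3 FPM under HG + FFA. Every HG + FFA library was above every Control library, although set 4 by little. The log2FC was 1.52 ± 0.23 (SE, n = 4 sets, FDR = 0.00667 by edgeR). Of the 12 tested genes for pyruvate dehydrogenase kinases and pyruvate entry, Pdk4 was the only one that passed an FDR of 0.05, and the median log2FC of the list was -0.05.

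Lipe, the hormone-sensitive lipase that releases fatty acids from stored diglycerides, was at 7.28, 12.7, 14.9 and 16.1 FPM in Control and at 17.1, 23.3, 26.4 and 22.7 FPM under HG + FFA. Its groups did not overlap, with a log2FC of 0.85 ± 0.10 (FDR = 0.00145), but 22.3% of its exon length overlaps another gene. Ech1, an isomerase in the oxidation of unsaturated fatty acids, was at 126.3, 189.1, 215.9 and 227.1 FPM in Control and at 275.3, 252.1, 342.7 and 315.4 FPM under HG + FFA. Its log2FC was 0.68 ± 0.12 (FDR = 0.0219), again without overlap of the groups.

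Other genes of fatty acid handling had positive log2FC without reaching an FDR of 0.05. Angptl4, a secreted inhibitor of lipoprotein lipase, was at 92.9, 340.7, 257.7 and 486.8 FPM in Control and at 509.2, 502.3, 789.6 and 756.1 FPM under HG + FFA, so that no library overlapped. The log2FC was 1.32 ± 0.29 (FDR = 0.0574), with log2 ratios from 0.56 in set 2 to 2.45 in set 1. Cd36, a fatty acid transporter at the cell surface, had a log2FC of 1.69 ± 0.37 (FDR = 0.0570) at a mean of 0.808 FPM in Control and 2.76 FPM under HG + FFA, below the 3 FPM asked of a DEG. Fabp4, a cytosolic fatty acid binding protein, had a log2FC of 1.08 ± 0.25 (FDR = 0.0697). Most of its RNA came from set 3, with 167.6 FPM in Control and 285.2 FPM under HG + FFA, against 11.8 to 42.9 FPM in the other sets. Under AII + NA, without added fatty acids, the log2FC of Fabp4 was similar, at 0.98 ± 0.25 (FDR = 0.175 by edgeR). Fabp4 and Lipe are also markers of adipocytes. Of the 10 adipocyte markers, Adipoq, Cidec, Lep and Ucp1 had 0 counts in all 8 libraries, Plin1, Retn and Cfd at most 3, and only Fabp4, Lipe and Adrb3 could be tested. Their summed level went from between 27.9 and 187.1 FPM to between 44.8 and 316.6 FPM, higher in 4 of 4 sets. Plin2, the coat protein of lipid droplets, had a log2FC of 0.37 ± 0.11 (FDR = 0.190).

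**Figure D2:**
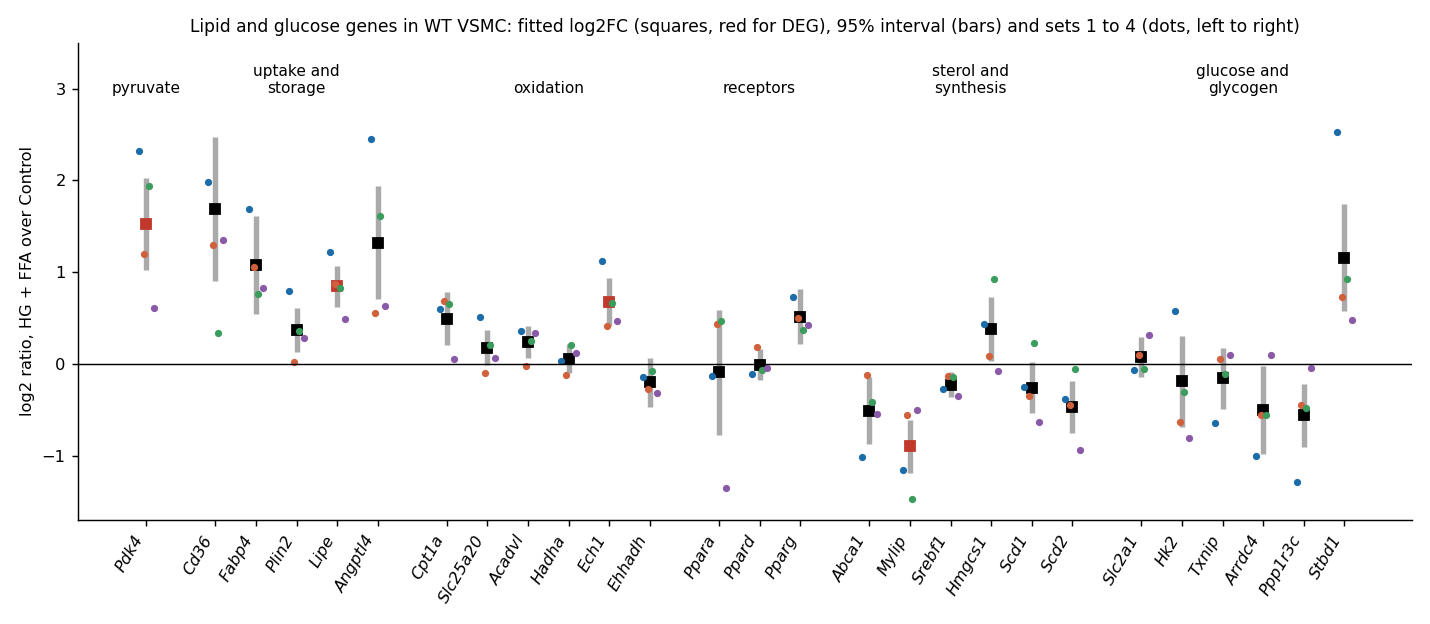
Log2 ratio of HG + FFA to Control for 27 genes of lipid and glucose metabolism in WT VSMC, grouped by role. Squares are the fitted log2FC (red for DEG), grey bars its 95% interval and the coloured dots sets 1 to 4 from left to right. The 4 DEG drawn are Pdk4, Lipe, Ech1 and Mylip, and set 1 gave the highest ratio for Angptl4 and Stbd1.

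Of the oxidation genes, only Ech1 passed an FDR of 0.05. Cpt1a, which lets long-chain fatty acids enter the mitochondrion, went from 126.4, 170.0, 220.9 and 252.5 FPM to 192.0, 272.8, 347.4 and 263.2 FPM, higher by 0.60 to 0.68 on the log2 scale in sets 1 to 3 and by 0.06 in set 4 (log2FC 0.49 ± 0.13, FDR = 0.133). Of the 8 tested carnitine shuttle genes, 4 were higher at an unadjusted p under 0.05 and none lower, with a median log2FC of 0.18. Of 23 mitochondrial oxidation genes, 6 were higher and 2 lower at that level, with a median of 0.02, and leaving out set 1, set 3 or set 4 brought the 6 down to 3. Of 17 peroxisomal genes, 4 were higher and 1 lower, with a median of 0.04. These counts stand against 5.29% of all genes tested that were higher and 5.9% that were lower at an unadjusted p under 0.05, and a median over all genes of -0.01. Acadvl and Hadha, enzymes of mitochondrial oxidation, had log2FC of 0.24 ± 0.08 and 0.06 ± 0.08 (FDR = 0.262 and 0.824).

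Among the receptors, Ppard was at 31.6 to 56.7 FPM in all 8 libraries with a log2FC of -0.01 ± 0.08 (FDR = 0.986), and Ppara stayed at or under 1.36 FPM (log2FC -0.09 ± 0.32, FDR = 0.954). Pparg was higher in 4 of 4 sets, at a mean of 3.84 ± 0.67 FPM (SD, n = 4) in Control and 5.49 ± 0.84 FPM under HG + FFA (log2FC 0.52 ± 0.14, FDR = 0.135). Neither this nor the other 11 tested genes of the list of PPAR receptors, RXR partners and coregulators passed an FDR of 0.05. A direct repeat of AGGTCA with 1 base between the copies, the site that PPAR and RXR bind, was searched on both strands with up to 2 mismatches in the 250 bases before each gene start (RefSeq, GRCm38.p6). It was found in 3.0% of the 11316 tested genes with such a sequence, in 1 of 23 higher DEG, Pdgfd, and in 1 of 13 lower DEG, Gjb5. With so few promoters and a share this low, these counts cannot be told from the share of all genes. Sites outside the window were not searched.

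Among genes that LXR activates, Mylip fell. Mylip, a ubiquitin ligase of lipoprotein receptors, was at 71.7, 77.9, 56.4 and 100.8 FPM in Control and at 32.1, 52.9, 20.3 and 71.3 FPM under HG + FFA. The decrease was present in each set and larger in sets 1 and 3, with a log2FC of -0.89 ± 0.14 (FDR = 0.00649). Abca1, the transporter that loads cholesterol onto apolipoprotein A-I, was at 201.8, 262.5, 226.9 and 404.0 FPM in Control and at 99.8, 242.1, 170.8 and 277.4 FPM under HG + FFA. Its log2FC of -0.51 ± 0.17 did not pass (FDR = 0.251), nor did that of Srebf1, the regulator of fatty acid synthesis, at -0.22 ± 0.06 (FDR = 0.143). Of the 11 tested genes of LXR receptors and cholesterol efflux, 6 were lower (5.9% of all genes were) and 1 higher at an unadjusted p under 0.05, 6 were lower in 4 of 4 sets, and the median log2FC was -0.21. The direct repeat with 4 bases between the AGGTCA copies, to which LXR binds with RXR, stood in none of the 13 lower DEG promoters with a sequence and in 2.36% of all. Among 13 promoters such a result cannot be told from the share of all genes, and sites outside the window were not searched.

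Genes of cholesterol synthesis and uptake had positive log2FC in 26 of 28 cases, mainly from sets 1 and 3. None of the 28 tested members was a DEG or passed an FDR of 0.05, but 21 were higher at an unadjusted p under 0.05 and none was lower, with a median log2FC of 0.44 (over all genes 5.29% were higher and 5.9% lower). By set, the median log2 ratios were 0.57, 0.10, 0.95 and 0.06, close to 0 in sets 2 and 4, and without set 3 the 21 became 10. Hmgcs1, an early enzyme of the pathway, had a log2FC of 0.38 ± 0.16 (FDR = 0.383). The desaturases Scd1 and Scd2, which make monounsaturated fatty acids, had log2FC of -0.26 ± 0.13 and -0.46 ± 0.13 (FDR = 0.492 and 0.157), with Scd2 lower in 4 of 4 sets. Their relative Scd4, named after its values were seen, had a log2FC of -2.10 ± 0.35 (FDR = 0.0103 by edgeR) but no adjusted p by DESeq2, and stayed under 1 FPM in every library, so that it was not a DEG.

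The list of genes for G2 and mitosis held 4 DEG, all higher, more than any other list. Mki67, the Ki-67 proliferation antigen, was at 5.45, 5.38, 1.03 and 1.51 FPM in Control and at 12.1, 10.4, 1.72 and 4.69 FPM under HG + FFA. Each set rose, although the levels of the animals differed, with a log2FC of 1.11 ± 0.17 (FDR = 0.00667). Kif11, the motor that separates the spindle poles, was at 2.25, 1.99, 0.632 and 0.753 FPM in Control and at 5.68, 3.24, 0.996 and 2.74 FPM under HG + FFA (log2FC 1.16 ± 0.20, FDR = 0.0160). Top2a, which untangles replicated chromosomes, went from 16.01, 11.5, 3.42 and 5.20 FPM to 26.3, 21.0, 5.46 and 13.5 FPM (0.89 ± 0.14, FDR = 0.00706). Ccnb1, the cyclin that starts mitosis with Cdk1, went from 5.39, 2.84, 0.658 and 1.27 FPM to 9.18, 5.05, 1.51 and 2.86 FPM (0.94 ± 0.17, FDR = 0.0219). Sets 1 and 2 held the higher levels of each of these genes and set 3 the lowest in both groups.

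All 22 genes of the list for G2 and mitosis had a positive log2FC, 4 of them as DEG, and 19 were higher at an unadjusted p under 0.05, with a median log2FC of 0.66 (against 5.29% and -0.01 over all genes). Median log2 ratios by set were 0.72, 0.55, 0.33 and 1.16, and leaving out a set in turn gave 13 to 20 members at that level. The summed level of the list went from 135.4, 106.7, 52.03 and 58.9 FPM to 222.4, 154.9, 59.01 and 109.7 FPM. Cenpf, Cenpe, Kif18b, Dlgap5 and Brip1 passed every criterion of a DEG other than the 3 FPM minimum. They were picked out after their values were seen, and apart from Brip1, a helicase of DNA repair, they act on kinetochores or the spindle. Cenpf, a kinetochore protein, had a log2FC of 1.57 ± 0.25 (FDR = 0.00910) at a mean of 0.943 FPM in Control and 2.56 FPM under HG + FFA. Of the 21 S phase genes, 1 was higher at an unadjusted p under 0.05, with a median log2FC of 0.09. This was Mcm5, a subunit of the replicative helicase, with 3.66 ± 2.26 FPM in Control and 5.30 ± 2.28 FPM under HG + FFA (SD, n = 4), a log2FC of 0.58 ± 0.20 and an FDR of 0.243.

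The promoters of these 4 DEG are shown because genes of mitosis share CCAAT boxes and the cell cycle element TTTGAA (CHR). It is through the CHR that they are held down outside of G2 and mitosis. Each line gives the 250 bases before the RefSeq start of the gene, placed on GRCm39 by an exact match and written 5′ to 3′ on the strand of the gene, with CCAAT or TTTGAA and their complements ATTGG and TTCAAA in capitals.

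Ccnb1, chr13:100922995-100923244, minus strand: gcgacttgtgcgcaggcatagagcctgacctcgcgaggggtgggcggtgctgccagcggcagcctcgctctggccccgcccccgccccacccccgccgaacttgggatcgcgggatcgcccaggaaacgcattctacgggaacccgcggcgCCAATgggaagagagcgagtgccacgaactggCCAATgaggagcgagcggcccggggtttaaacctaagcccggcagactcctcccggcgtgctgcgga
Kif11, chr19:37364580-37364829, plus strand: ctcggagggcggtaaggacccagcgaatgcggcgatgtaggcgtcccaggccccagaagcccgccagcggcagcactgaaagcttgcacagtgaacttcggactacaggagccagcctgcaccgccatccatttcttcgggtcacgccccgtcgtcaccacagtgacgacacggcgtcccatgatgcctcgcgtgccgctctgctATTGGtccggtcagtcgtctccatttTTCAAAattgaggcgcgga
Top2a, chr11:98915016-98915265, minus strand: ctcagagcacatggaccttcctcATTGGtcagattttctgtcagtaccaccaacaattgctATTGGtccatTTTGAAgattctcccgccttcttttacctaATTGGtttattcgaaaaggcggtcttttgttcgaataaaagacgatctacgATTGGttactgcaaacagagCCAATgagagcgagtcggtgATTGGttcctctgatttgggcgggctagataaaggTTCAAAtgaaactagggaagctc
Mki67, chr7:135318109-135318358, minus strand: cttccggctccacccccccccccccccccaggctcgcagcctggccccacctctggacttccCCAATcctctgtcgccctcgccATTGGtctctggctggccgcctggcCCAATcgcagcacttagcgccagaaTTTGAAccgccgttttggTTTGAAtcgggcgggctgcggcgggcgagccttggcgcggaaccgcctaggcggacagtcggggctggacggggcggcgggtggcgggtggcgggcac

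Ccnb1 had 2 CCAAT boxes and no TTTGAA in this window, Kif11 had 1 of each, Top2a 6 and 2, and Mki67 3 and 2. Among the 11316 tested genes with a promoter sequence, 40.3% held a CCAAT box (4555), 1472 genes TTTGAA and 6.0% both. Of the 18 matched genes for G2 and mitosis, 15 held a CCAAT box and 8 both. Of the 23 matched higher DEG, 16 held a CCAAT box, 10 TTTGAA and 9 both, against 5, 1 and 0 of the 13 matched lower DEG. The 9 were Ckap2l, Dhrs3, Gabra3, Gm14403, Kif11, Klhl13, Mki67, Top2a and Zfp970, so that they were not all cell division genes. Such matches describe letters in a window and not sites in use.

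The largest increase of any DEG was that of Pcdh10 (chr3:45332833-45390058), a protocadherin that mediates adhesion between like cells. It was at 1.03, 1.43, 0.843 and 0.890 FPM in Control and at 8.59, 4.56, 4.47 and 1.98 FPM under HG + FFA. All HG + FFA libraries were above the Control libraries, with a log2FC of 2.14 ± 0.26 (FDR = 0.00118). Another protocadherin, Pcdh11x, rose from 1.71, 1.60, 1.82 and 5.20 FPM to 8.62, 5.12, 4.28 and 7.25 FPM (1.38 ± 0.26, FDR = 0.0229). Gabra3, a subunit of the chloride channel that GABA opens, was at 17.5, 14.3, 24.9 and 45.6 FPM in Control and at 60.7, 36.7, 61.1 and 96.3 FPM under HG + FFA. The rise was similar in all sets, with log2 ratios of 1.08 to 1.79 and a log2FC of 1.37 ± 0.13 (FDR = 9.88e-05). The further DEG Pcdh9, Gabre, another subunit of that channel, and Gria4, a glutamate receptor subunit, had log2FC of 0.67, 0.90 and 0.93 and groups that did not overlap. Slc6a6, the taurine transporter, was at 112.1, 80.8, 100.7 and 39.7 FPM in Control and at 200.9, 172.0, 214.0 and 76.01 FPM under HG + FFA, with log2 ratios of 0.84 to 1.09 (0.99 ± 0.12, FDR = 0.00118).

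**Figure D3:**
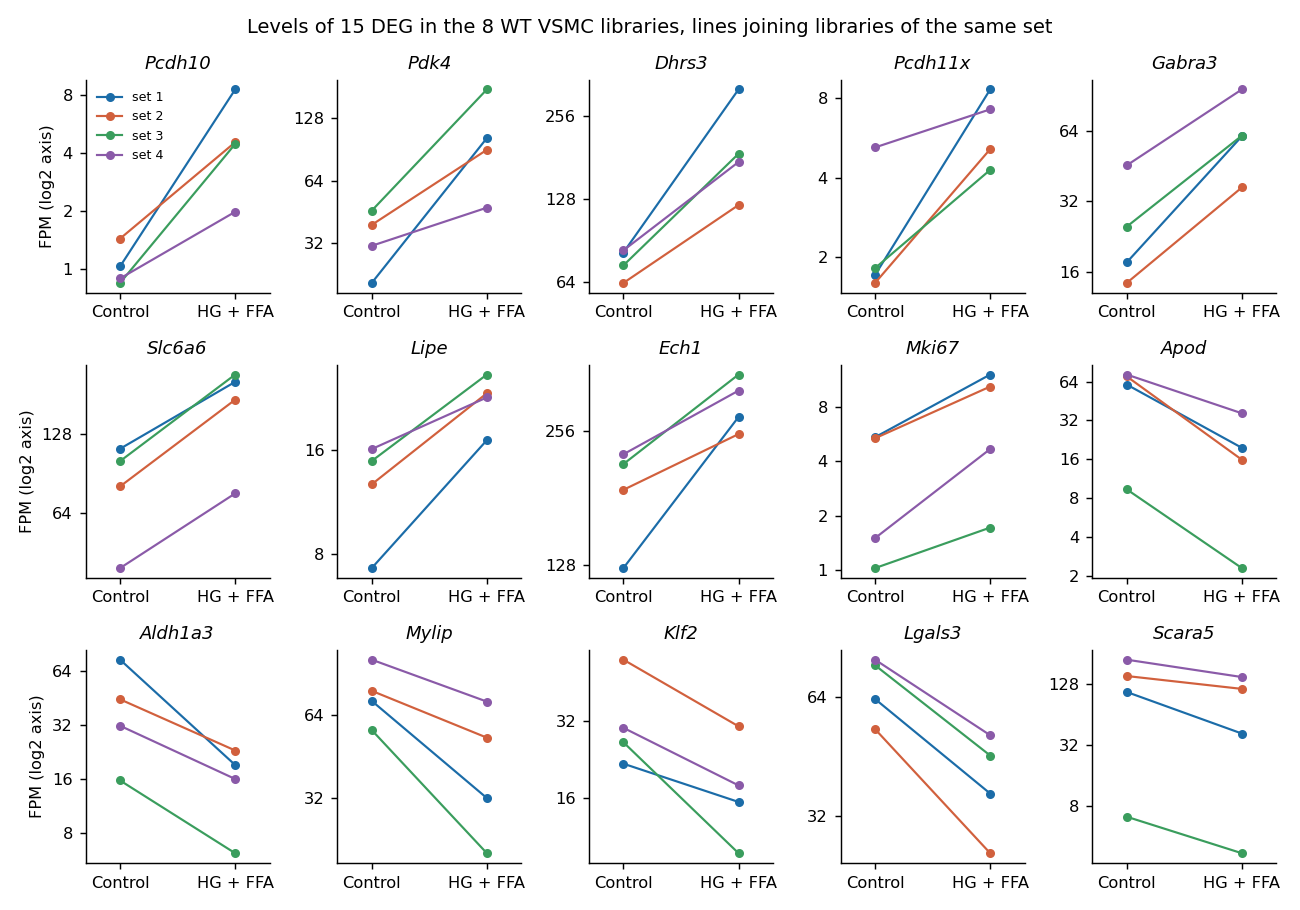
Level in FPM (log2 axis) of 15 DEG in the Control and HG + FFA libraries of WT VSMC, with lines joining the libraries of a set. All lines rise for the 9 higher DEG and fall for the 6 lower DEG. The sets differ in level, with Mki67 in Control between 1.03 and 5.45 FPM and Scara5 between 6.32 and 219.7 FPM.

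Enzymes of retinoid metabolism moved in opposite directions. Dhrs3, which reduces retinaldehyde to retinol, was at 81.9, 63.5, 73.6 and 83.4 FPM in Control and at 320.8, 121.9, 187.2 and 174.8 FPM under HG + FFA. Its groups did not overlap, and the log2FC was 1.35 ± 0.18 (FDR = 0.00249). Aldh1a3, which oxidizes retinaldehyde to retinoic acid, was at 73.7, 44.4, 15.7 and 31.7 FPM in Control and at 19.2, 23.1, 6.22 and 16.05 FPM under HG + FFA. It fell in each set, with a log2FC of -1.29 ± 0.16 (FDR = 0.00149). These genes were put together after their values were seen.

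The remaining higher DEG with a log2FC over 1 had less clear roles in VSMC. They were AI838599, the only lncRNA among the DEG (1.56 ± 0.27), the zinc finger genes Zfp970 (1.47 ± 0.22) and Gm14403 (1.06 ± 0.22), Cldn15, a tight junction protein (1.23 ± 0.20), Prss35, a serine protease relative (1.21 ± 0.17), and Mbd1, which binds methylated DNA (1.11 ± 0.20). Zfp970 and Gm14403 lie close together on chromosome 2, from 177156498 to 177183583 and from 177189969 to 177204572. As reads with several alignments were counted, reads of related zinc finger genes may be counted in both. Cldn15 and AI838599 stayed at means of 3.41 and 4.33 FPM even under HG + FFA. In all, 12 higher and 6 lower DEG had means under 10 FPM in both groups.

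Apod, a secreted carrier of small lipids, had the largest decrease of any DEG. It was at 60.8, 70.4, 9.35 and 72.7 FPM in Control and at 19.6, 15.9, 2.29 and 36.4 FPM under HG + FFA. Set 3 held little Apod RNA in either group, and each set fell, with a log2FC of -1.67 ± 0.15 (FDR = 9.88e-05), although 26.4% of its exon length overlaps another gene. Dlk1, a membrane protein of progenitor cells that interacts with Notch signalling, went from 2.11, 10.3, 5.21 and 9.75 FPM to 0.853, 6.10, 0.807 and 5.54 FPM (-1.31 ± 0.23, FDR = 0.0163). Angptl7, a secreted protein of the angiopoietin-like family, and Rerg, a small GTPase, had log2FC of -1.01 ± 0.21 and -0.91 ± 0.15. Gjb5, a gap junction protein, had -0.82 ± 0.17 (FDR = 0.0428). Klf2, the transcription factor known for the quiescent endothelium, was at 21.8, 55.1, 26.4 and 30.0 FPM in Control and at 15.5, 30.4, 9.82 and 17.97 FPM under HG + FFA. It was lower in each set (-0.87 ± 0.12, FDR = 0.00268).

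Markers of fibroblasts and the adventitia included 3 lower DEG of 10, where 0.101% of all genes were lower DEG. Pi16, which marks adventitial fibroblasts, was at 82.2, 159.5, 35.6 and 462.2 FPM in Control and at 55.3, 101.6, 16.7 and 310.0 FPM under HG + FFA (-0.71 ± 0.11, FDR = 0.00649). The scavenger receptor Scara5 was at 105.9, 151.9, 6.32 and 219.7 FPM in Control and at 41.4, 113.5, 2.77 and 148.4 FPM (-0.82 ± 0.17, FDR = 0.0419). Cd34, a progenitor surface protein, was at 19.7, 89.7, 12.2 and 179.2 FPM and fell to 9.24, 66.3, 4.95 and 104.4 FPM (-0.85 ± 0.11, FDR = 0.00231). Each fell in all sets, but set 3 held far less RNA of each than set 4. Of the 10 markers, 6 were lower and none higher at an unadjusted p under 0.05 (5.9% and 5.29% of all genes), with a median log2FC of -0.29. The abundant Dcn had a log2FC of -0.04, Lum -0.06 and Col14a1 0.14. The sum of the 10 went from between 3927 and 7761 FPM to between 3667 and 7281 FPM, lower in 3 of 4 sets, and the part of a change in cell mixture in the 3 DEG was not tested. No endothelial marker of 10 was called at that level.

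Lgals3, galectin-3, a lectin of modulated VSMC and macrophages, was at 63.3, 53.1, 77.1 and 79.7 FPM in Control and at 36.4, 25.7, 45.5 and 51.2 FPM under HG + FFA, with no overlap of the groups (-0.81 ± 0.11, FDR = 0.00240). It was the only DEG among the 16 phenotypic modulation markers. Of the 19 contractile genes tested, none passed an unadjusted p under 0.05, and Acta2, smooth muscle actin, had a log2FC of -0.25 ± 0.34 (FDR = 0.846) and Myh11, smooth muscle myosin, 0.14 ± 0.20 (FDR = 0.856). Of 31 matrix genes, 6 were higher and 4 lower at that level, none at an FDR under 0.05. Col1a1, a chain of collagen I, had -0.14 ± 0.13 (FDR = 0.738), and Aspn, a small proteoglycan, -0.90 ± 0.27 (FDR = 0.169), lower in 4 of 4 sets. Under AII + NA the log2FC of Aspn was similar, at -0.94 ± 0.27 (FDR = 0.233 by edgeR). The collagen genes Col5a3 and Col23a1, outside this list, were DEG with log2FC of -0.78 and -0.64.

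All 21 interferon-stimulated genes had a negative log2FC, with a median of -0.69, from sets 1 to 3. Of these, 17 were lower at an unadjusted p under 0.05 and none higher (5.9% of all genes were lower), none passed an FDR of 0.05, and 3 were lower in 4 of 4 sets. The median log2 ratios by set were -1.31, -0.83, -0.61 and 0.15, and without set 1 the 17 became 10. Their summed level was 1247, 1626, 802.2 and 598.9 FPM in Control and 650.8, 955.4, 547.5 and 666.0 FPM under HG + FFA, lower in sets 1 to 3 and not in set 4, which had the lowest Control. Ifi27l2a, an interferon-induced gene outside the list, was a DEG, at 6.02, 8.31, 6.48 and 2.91 FPM in Control and at 2.74, 2.79, 2.58 and 2.13 FPM under HG + FFA (-1.16 ± 0.20, FDR = 0.0160). Summed macrophage and leukocyte markers went from 272.1, 160.5, 36.8 and 95.2 FPM to 202.0, 117.0, 46.2 and 97.0 FPM, lower in sets 1 and 2. Of 9 tested, C1qa, C1qb and Adgre1 were lower at an unadjusted p under 0.05, and Ptprc was at or under 0.765 FPM. Their part in the interferon genes was not tested.

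**Figure D4:**
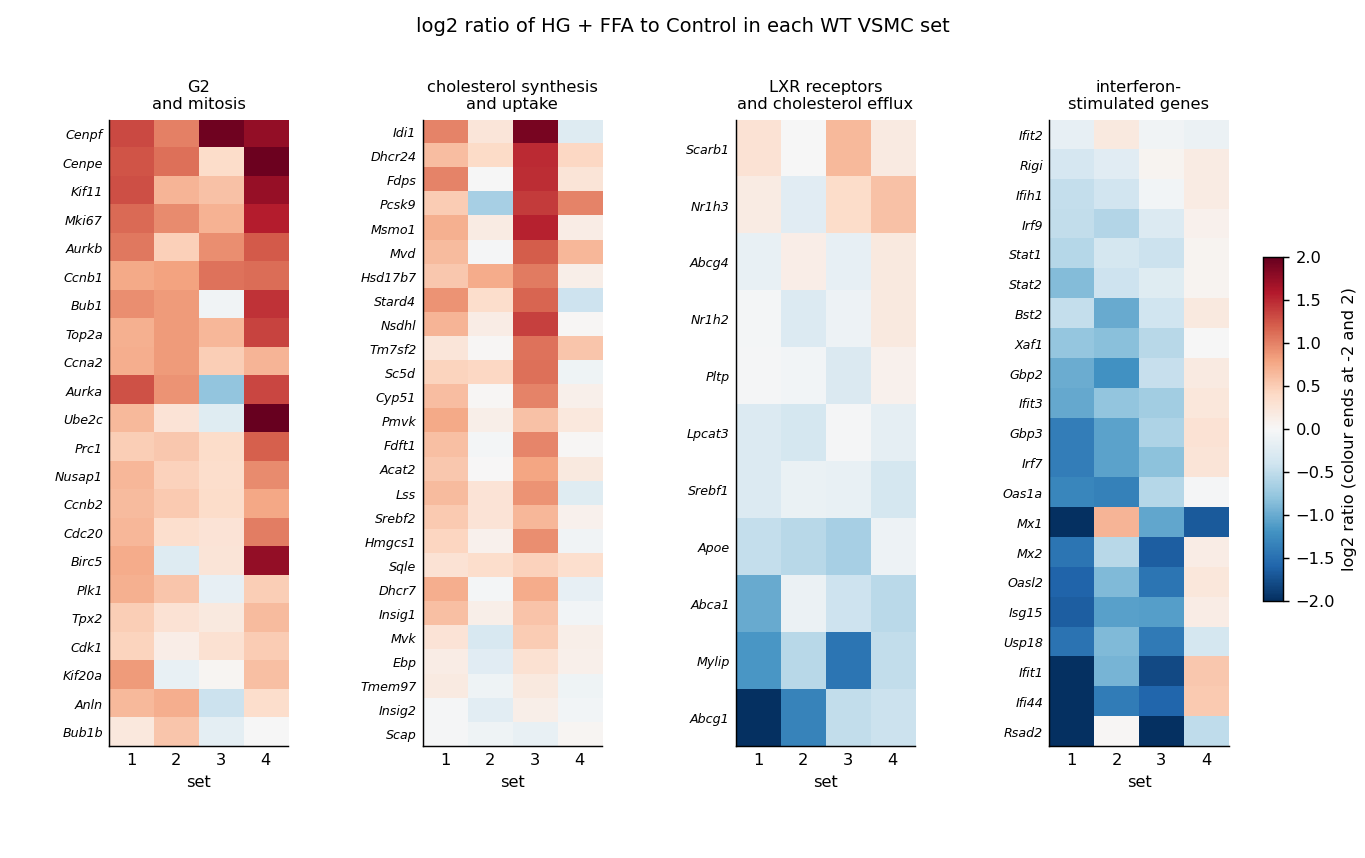
Log2 ratio of HG + FFA to Control in each of sets 1 to 4 (columns) for tested members (rows) of 4 gene lists, with red for higher and blue for lower and the colour ending at -2 and 2. Genes of G2 and mitosis are mostly red in every set, those of cholesterol synthesis in sets 1 and 3, and interferon-stimulated genes are blue in sets 1 to 3.

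Of 23 tested genes of the ER stress and integrated stress response, 10 were lower and 1 higher at an unadjusted p under 0.05 (5.9% and 5.29% of all genes), with a median log2FC of -0.20, and without set 2 the 10 became 5. Hspa5, the main chaperone of the ER, was lower in 4 of 4 sets, from 879.0 ± 133.7 FPM to 730.8 ± 162.3 FPM (SD, n = 4), with a log2FC of -0.28 ± 0.08 (FDR = 0.147). Ddit3, the transcription factor CHOP, had -0.30 ± 0.12 (FDR = 0.321), but 82.4% of its exon length overlaps another gene. Of 25 antioxidant genes, 2 were higher and 1 lower at that level. Hmox1, heme oxygenase 1, was higher in 4 of 4 sets (0.28 ± 0.09, FDR = 0.195), and Nqo1 had -0.12 ± 0.11 (FDR = 0.741).

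For glucose handling no gene passed an FDR of 0.05. Of 25 genes of glucose transport and glycolysis, 1 was higher and 2 lower at an unadjusted p under 0.05, with a median log2FC of 0.01. Slc2a1, the basal glucose transporter GLUT1, had a log2FC of 0.08 ± 0.10 (FDR = 0.837), and Hk2, hexokinase 2, -0.19 ± 0.23 (FDR = 0.824). Txnip, which glucose induces through the sensor ChREBP/MondoA, was at 791.3, 1156, 1276 and 1345 FPM in Control and at 507.8, 1201, 1182 and 1441 FPM under HG + FFA (-0.15 ± 0.16, FDR = 0.777), and its relative Arrdc4 had -0.50 ± 0.23 (FDR = 0.422). Stbd1, which tethers glycogen to membranes, was at 15.3, 37.7, 28.4 and 43.1 FPM in Control and at 88.8, 62.6, 53.9 and 60.4 FPM under HG + FFA. Its groups did not overlap, but the fit gave 1.16 ± 0.27 with an FDR of 0.0813. Ppp1r3c, a glycogen-targeting subunit of protein phosphatase 1, had -0.56 ± 0.16 (FDR = 0.161). Of the 22 tested genes of ErbB signalling 2 were higher and none lower at that level, and Egfr had -0.00 ± 0.10 (FDR = 0.993).

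No cytokine or adhesion gene passed an FDR of 0.05. Il6 was at 19.9, 1.53, 1.82 and 1.03 FPM in Control and at 25.7, 0.490, 4.79 and 1.40 FPM under HG + FFA (log2FC 0.52 ± 0.50, FDR = 0.756), so that set 1 held most of it. Ccl2, the monocyte chemokine, had a log2FC of -0.15 ± 0.50 (FDR = 0.951) and Vcam1, the adhesion receptor for leukocytes, -0.03 ± 0.19 (FDR = 0.971). Of 21 cytokine and adhesion genes, 1 was higher and 1 lower at an unadjusted p under 0.05.

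AII + NA, a vasoactive exposure of cells of the same sets, showed how the same genes stood without the metabolic one. Its log2FC shares the Control libraries with that of HG + FFA, so the values only stand side by side. The log2FC of Pdk4 was 1.52 under HG + FFA and 0.10 under AII + NA, that of Mylip -0.89 and -0.02, and that of Mki67 1.11 and 0.36. Of the 17 lower DEG, 14 were also lower under AII + NA, with a median log2FC of -0.25. Of the 31 higher DEG, 18 were also higher, with a median of 0.06. At an unadjusted p under 0.05 these were 5 and 1, where 1592 of all 16905 genes passed in either direction. In the ALL libraries, which share the Control as well, the log2FC was 1.62 for Pdk4, -0.92 for Mylip and 1.296 for Mki67. Compared directly, without the Control libraries, HG + FFA and AII + NA differed at an FDR under 0.05 for 415 genes, 2.45% of those tested. Among them were 28 of the 31 higher and 11 of the 17 lower DEG, which were chosen on the same HG + FFA libraries.

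In KO VSMC, from 4 other animals, all 31 higher and all 17 lower DEG of WT VSMC had the same direction. Of these, 22 and 13 passed an unadjusted p under 0.05, as 12.4% of all genes in KO VSMC did in either direction, and 11 and 2 were DEG, as 0.285% of all were. The number of DEG in KO VSMC, 50, depended on single sets, with 289 without set 5, which kept Egfr RNA, 5 without set 6, 0 without set 7 and 30 without set 8. Pdk4 was higher in 4 of 4 KO sets with log2 ratios of 0.48 to 2.07 (log2FC 1.63 ± 0.19, FDR = 0.00169), and Mylip was lower in 4 of 4 (-0.81 ± 0.13, FDR = 0.0147). Cpt1a and Angptl4, which missed the threshold in WT VSMC, had log2FC of 1.04 and 2.13 in KO VSMC (FDR = 0.0121 and 0.0151). The cell division genes had smaller values, with 0.75 for Mki67 (FDR = 0.308) and 0.36 for Kif11 (FDR = 0.581). The median of the list for G2 and mitosis was 0.41, against 0.66 in WT VSMC. Their Control levels differed too. Mki67 and Kif11 had Control means of 13.2 and 6.75 FPM in KO VSMC, against 3.34 and 1.41 FPM in WT VSMC. The part of these starting levels in the smaller values was not tested. The cholesterol synthesis list had a median of 0.11 and the interferon list of -0.17 in KO VSMC.

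The difference between WT VSMC and KO VSMC itself passed an FDR of 0.05 for 0 of 18339 genes with edgeR, with 564 at an unadjusted p under 0.05, and for 0 with DESeq2. The unadjusted 95% intervals of the difference had a median half-width of 0.58 on the log2 scale over the 48 DEG. Differences below about that size were thus not detectable for many of them even before correction for the number of genes. With that correction larger differences did not pass either, such as 0.80 for Kif11. For Pdk4 the difference was -0.10 (95% interval -0.78 to 0.58), and for Mylip -0.09 (-0.51 to 0.33). The interval did not include 0 for 7 of the 48, before any correction for the number of genes, among them Cd34 with -0.60 (-0.96 to -0.23), Kif11 with 0.80 (0.02 to 1.58) and Gria4 with -0.61 (-1.11 to -0.11).

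In EC, where 9 sets held both libraries and sets 17 and 18 came from the same animal, 28 of 29 higher and 17 of 17 lower DEG of WT VSMC had the same direction, with Prss35 as the exception and Pcdh10 and Pcdh11x too low to test. Of these, 21 and 13 passed an unadjusted p under 0.05, as 16.9% of all genes in EC did, and 10 and 6 were DEG, as 0.647% of all were. The EC libraries also held RNA of smooth muscle and matrix genes. Control means in EC were 1142 FPM for Acta2 and 2499 FPM for Col1a1, against 585.4 and 4157 FPM in WT VSMC. The part of shared cell types in the shared direction was not tested. Pdk4 rose in 9 of 9 sets from a mean of 127.1 to 268.7 FPM (1.204 ± 0.13, FDR = 9.90e-08), and Mylip fell from 67.8 to 29.9 FPM (-1.195 ± 0.11, FDR = 4.92e-09). Angptl4 had a log2FC of 3.22 in EC (FDR = 2.25e-08) and Cpt1a of 0.80 (FDR = 4.92e-09). The difference from WT VSMC passed an FDR of 0.05 for 0 of 19362 genes with edgeR, with 397 at an unadjusted p under 0.05, and for 3 with DESeq2. For Angptl4 it was -1.89 (95% interval -2.91 to -0.87) before correction, and for Prss35 2.07 (0.78 to 3.36). EC and VSMC libraries carry different batch labels, so that cell type and batch cannot be told apart, whereas WT VSMC and KO VSMC carry the same one. Of the animals, 2 gave both WT VSMC and EC, and 2 others gave both KO VSMC and EC. The EC of these 2 others, although labelled WT, thus came from donors of KO VSMC. Of the 48 DEG, 8 were DEG in KO VSMC and in EC as well, among them Ech1, Gabre, Gria4, Lipe, Mylip, Pdk4 and Tgm2.

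**Figure D5:**
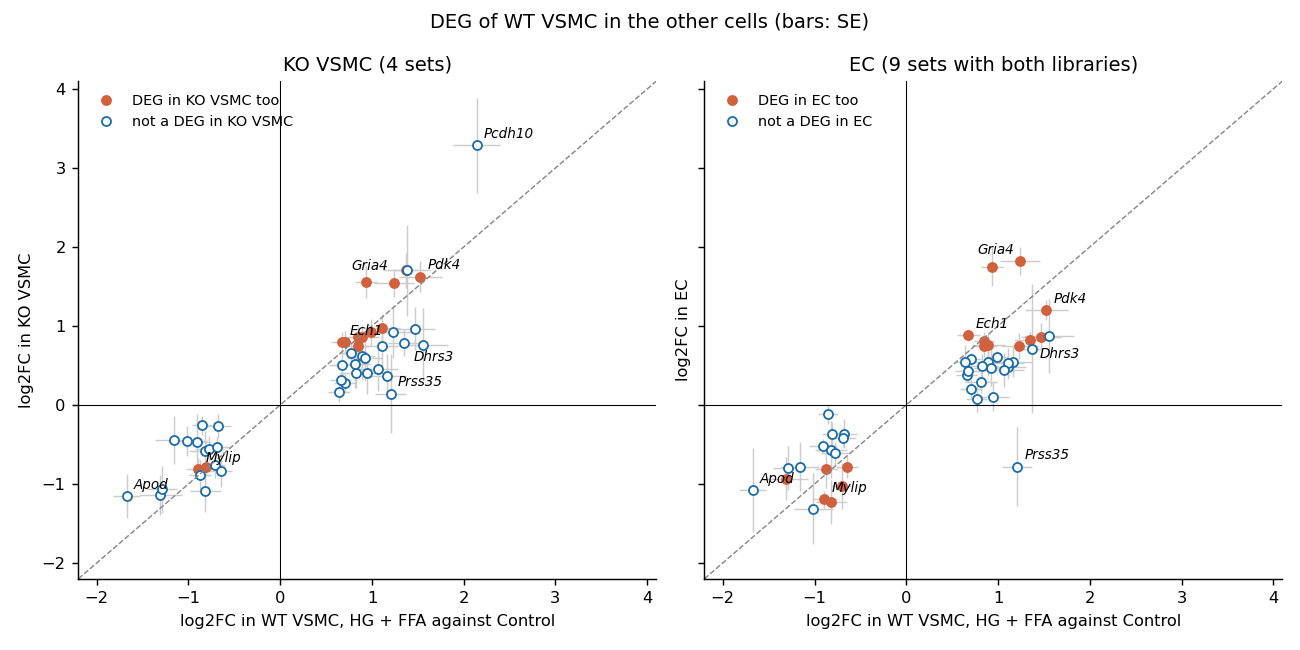
Log2FC of HG + FFA against Control for the DEG of WT VSMC (horizontal axis) in KO VSMC (left, 48 genes) and in EC (right, 46 genes tested there), with SE as bars and the dashed line marking equal values. Filled points are DEG in the other cell as well, 13 in KO VSMC and 16 in EC. All points in KO VSMC and all but Prss35 in EC lie in the quadrants of the same direction.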

How the data were processed

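Poly(A) RNA of 8 WT VSMC libraries (Control and HG + FFA, sets 1 to 4) was sequenced in read pairs. The authors aligned reads to mm39 with HISAT2 2.1.0, assigned them to exons with featureCounts, counting reads with several alignments, and deposited raw counts per gene without normalization. The strand setting is not given in the sources used here. Mitochondrially encoded genes are listed at 0 counts in all 8 libraries.

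Libraries were fitted with the AII + NA and ALL libraries of the same cells (16 in WT VSMC) in edgeR 4.0.16 (filterByExpr, TMM, quasi-likelihood test) and DESeq2 1.42.0 in R 4.3.3, with condition and set number as terms. The SE is |log2FC| divided by the square root of edgeR's F statistic, and FDR values are Benjamini-Hochberg adjusted over all genes tested. Log2 ratios per set use FPM plus 0.1. Set numbers pair libraries, since the sets come from the same animal and passage, and libraries of a set deviated together from the group means (r of 0.755 to 0.899, against -0.55 to 0.335 otherwise). No pair of libraries within Control or within HG + FFA was a duplicate, with a chi-square per gene of at least 51.4. Pairs of a Control and an HG + FFA library were not compared in this way. Replicates are animals. The fits were also run on counts simulated from the fitted model itself, which cannot show whether that model holds for the real counts.

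Gene symbols, positions and exon overlaps come from the GENCODE annotation of GRCm39, which held 56310 of 56953 identifiers, and 0.024% of the counts lay outside it. Promoters are RefSeq (GRCm38.p6), searched with Python 3.11.15. Genes were named by 3 criteria: the 15 most increased and 10 most decreased DEG, by |log2FC|, that moved alike in 4 sets; DEG in the gene lists; and a core list of metabolic and vascular genes. Any of the other 16 DEG, and further list or marker genes, were named after their values were seen. Members and lists were chosen with earlier results of these data known. Alternatives were single tools, other size factors, filters and thresholds, no set term, only the 8 libraries and each set left out. Results of a few genes are not reported here.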

Additional observations from a re-analysis of the deposited data

Results flagged for a closer look

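Of 75 named genes, 2 had a set whose log2 ratio of HG + FFA to Control stood apart from the other 3 by Dixon's test at the 95% level, and chance flags about 1 group in 20. Pi16, the adventitial fibroblast gene, had a log2 ratio of -1.08 in set 3 and of -0.65 to -0.57 in the other sets. Set 3 was also the set with the least Pi16 RNA in Control, at 35.6 FPM. Cpt1a had a log2 ratio of 0.060 in set 4 and of 0.60 to 0.68 in the others, and set 4 had the highest Control level, at 252.5 FPM.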

How the results depend on the processing

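The count of 48 DEG in WT VSMC was 48 with edgeR alone, with DESeq2 size factors and with all gene types, and 77 with DESeq2 alone. It was 53 without the FPM minimum, 83 without a log2FC threshold, 19 at a |log2FC| of at least 1, 70 without a filter on low counts (47 of the 48 among them) and 76 when only the 8 libraries were fitted (45 of the 48 among them). Leaving out a set gave 19 to 56, with the lowest count without set 3 and the highest without set 4. Without the set as a block for the pairing, 0 DEG remained by both tools (300 genes at an unadjusted p under 0.05 with edgeR, 6 at an FDR under 0.05 with DESeq2). The unblocked fit likewise gave 0 DEG in KO VSMC, 2 in EC and 0 genes between HG + FFA and AII + NA. DESeq2 alone gave 91 DEG in KO VSMC and, in place of edgeR, 883 genes between HG + FFA and AII + NA and 3 for the difference between WT VSMC and EC. Leaving out a set gave 0 to 289 DEG in KO VSMC and 90 to 336 genes between HG + FFA and AII + NA. Of 75 named genes, 10 changed sign under an alternative (Acsl1, Ccl2, Egfr, Hk2, Myh11, Ppara, Ppard, Slc2a1, Txnip and Vcam1), all with a |log2FC| under 0.2 and an FDR over 0.7 with all sets and the block, and none of the 32 named DEG did. Ppara, for example, went from -0.09 to 0.33 without set 4. Of the 32 named DEG, 12 kept an FDR under 0.05 without each set in turn: Aldh1a3, Apod, Cd34, Dhrs3, Gabra3, Klf2, Lgals3, Lipe, Pcdh10, Pi16, Prss35 and Slc6a6. Pdk4, Mylip and the 4 mitotic DEG were not among them. The counts of list members without each set were chosen after the data were seen. The cause of these changes was not tested.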
